A study of Arabidopsis thaliana with 2 samples.

Results

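10 genes that mark darkness and sugar starvation in Arabidopsis thaliana were followed in seedlings treated with the bacterial peptide flg22. They were picked by locus from the 27416 genes of the deposited table, and are SEN1, ASN1 (also DIN6), DIN2, DIN10, DRM1, AT2G20670, KMD4, AKINBETA1, bZIP1 and bZIP63. Their reads and RPKM in both libraries were known when they were picked, so these values are a description and are given without a test. The table compares whole wild-type seedlings of the strain Columbia at day 10 after germination. The flg22 group was exposed to 1 µmol/L flg22 for 4 h, and the other group is labelled control. For the control group no dose or time is recorded, and the other labels of both groups are alike. For each group 3 biological replicates were pooled into 1 library, and no difference therefore has a replicate check. Gene reads totalled 24621440 in the flg22 library and 21414567 in the control library.

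Plants in the dark, or short of sugar, switch on a starvation programme under the protein kinase SnRK1, the plant relative of yeast SNF1 and animal AMPK. SnRK1 acts in part through bZIP transcription factors of groups C and S1, which pair with each other and raise genes for the recovery of carbon and nitrogen, while sugar and light turn the same genes down. The DIN (dark-inducible) genes were isolated by their rise in darkened leaves and are widely used as markers of this state. The peptide flg22 is a stretch of bacterial flagellin that plants recognise through the receptor kinase FLS2.

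Levels are RPKM, reads scaled to the listed gene length and to the library total. A ratio in folds compares reads per library total, and the range in parentheses after it is its exact 95% interval for counting error alone. How far plants differ is not in that range. Counts of genes past 2-fold use log2 ratios of RPKM after adding 1 RPKM, over the 18724 genes averaging 1 RPKM or more in the libraries, called measured genes. That constant understates the ratio of weakly expressed genes.

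FRK1 (AT2G19190), a receptor-like kinase gene that flg22 induces, was at 85.7 RPKM in the flg22 library and 1.01 RPKM in the control library, the direction the flg22 label implies. Shoot and root markers were present in both libraries, and 3 pollen markers were listed at 0 in both. Seed storage genes were not all at 0. CRU1 had 7 reads with flg22 and 69 in the control, CRU3 had 0 with flg22 and 35 in the control, and At2S3 had 0 in both. The source of these seed reads was not tested. Of 8 shoot markers, 6 were at least 2-fold lower with flg22, and none was at 0. The lowest log2 ratios were those of LHCB1.1, RCA and GLK2, at -2.82, -2.54 and -2.21. KAT1 and MYB60 lay within 2-fold, with log2 ratios of -0.40 and 0.02. The summed level of the 8 shoot markers was 1670.4 RPKM in the flg22 library and 5254 RPKM in the control library. Of this, RBCS1A alone held 1234 RPKM with flg22 and 2713 RPKM in the control. Of 9 root markers, TIP2;3 was at least 2-fold lower with a log2 ratio of -1.05, EXPA7 and CASP1 had 0.84 and -0.56, none was at 0, and their summed level was 109 RPKM in the flg22 library and 112 RPKM in the control library. Over all measured genes 8.27% were at least 2-fold lower. The part of the shoot marker difference in the results that follow was not tested. In pools of whole seedlings, fewer cells of a type and less RNA per cell cannot be told apart.

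The starvation markers were mostly abundant in control seedlings and much lower after flg22. Together the 10 genes took 0.0528% of gene reads in the flg22 library (0.0519 to 0.0537) and 0.289% in the control library (0.287 to 0.292). Of the 10 genes, 8 reached a mean of 1 RPKM, and all 8 were at least 2-fold lower with flg22, by 2.88-fold to 30.2-fold. The same call was made for 8.27% of all measured genes. On the same scale 6 of the 8 were at least 4-fold lower, against 1.49% of all measured genes, and 5 were at least 8-fold lower, against 0.283%. None of the 8 was higher, where 11.3% of all measured genes were at least 2-fold, 4.17% at least 4-fold and 1.7% at least 8-fold higher. Since the genes were picked with these ratios known, nothing is read from these counts. The median log2 ratio of the 8 was -3.19, and that of all measured genes was -0.03. The remaining genes were DIN2, which had few reads and was higher with flg22, and bZIP1, which was listed at 0 reads in both libraries.

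**Figure D1:**
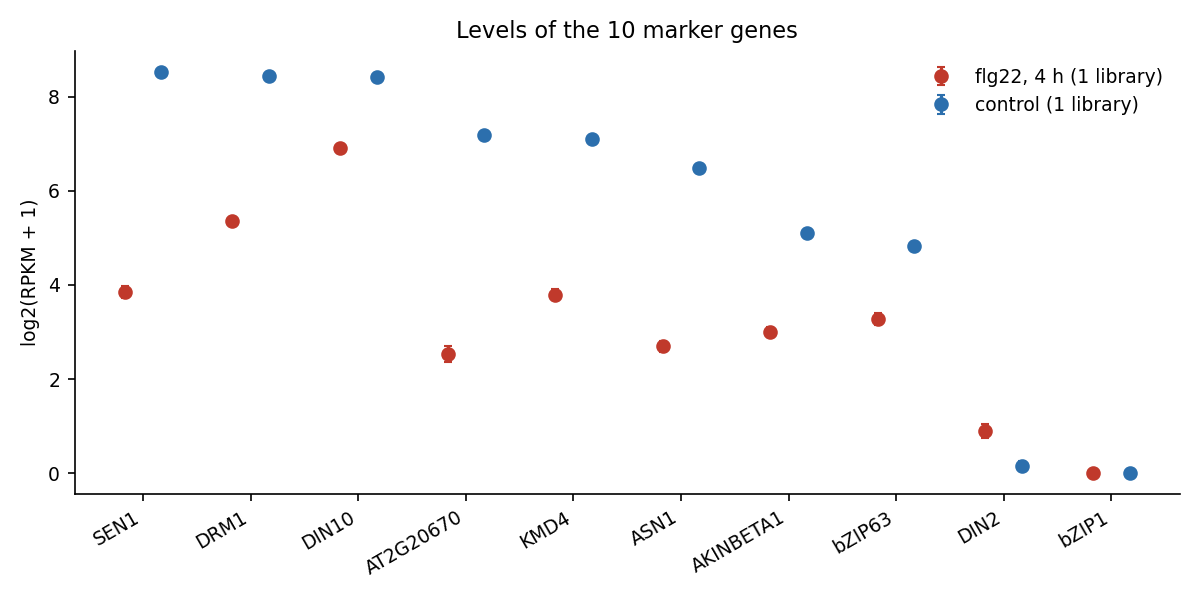
Level of each marker gene as log2(RPKM + 1), with flg22 in red to the left and control in blue to the right, 1 library each; bars are exact 95% Poisson intervals of the reads and are mostly smaller than the points. SEN1, DRM1 and DIN10 stand together at the top in the control library (365, 346 and 340.5 RPKM) and lie far apart in the flg22 library (13.5, 40.1 and 118 RPKM).

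SEN1 (AT4G35770, also DIN1) encodes a rhodanese-like protein and is a classic transcript of darkened and senescing leaves. It had 415 reads, or 13.5 RPKM, in the flg22 library, against 9783 reads, or 365 RPKM, in the control library. It was the most abundant of the 10 genes in the control library and was 27.1-fold lower with flg22 (24.6 to 29.97). Among all measured genes, 7 had a log2 ratio as low as that of SEN1 or lower, SEN1 included.

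AT2G20670 encodes a protein of the DUF506 family with no known function. It was at 4.78 RPKM (197 reads) in the flg22 library and at 144 RPKM (5168 reads) in the control library. Its ratio was 30.2-fold lower (26.2 to 34.95), and its interval overlapped that of SEN1. These were the most strongly reduced of the 10 genes.

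ASN1 (AT3G47340) encodes the asparagine synthetase that moves nitrogen from glutamine to asparagine, a carbon-thrifty nitrogen store made in darkness. In the flg22 library ASN1 had 454 reads and 5.49 RPKM, and in the control library 6356 reads and 88.4 RPKM. It was 16.1-fold lower with flg22 (14.6 to 17.7), less than SEN1 and more than KMD4 beyond counting error.

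KMD4 (AT3G59940) encodes a Kelch-repeat F-box protein. The KMD family marks phenylalanine ammonia-lyase and the type-B response regulators of cytokinin for breakdown. KMD4 was at 12.9 RPKM (488 reads) in the flg22 library and at 135 RPKM (4460 reads) in the control library, 10.5-fold lower (9.57 to 11.6). In the reference annotation the autophagy gene AT3G59950 (ATG4b), on the opposite strand, shares 160 bases with KMD4, and it had 926 reads in the flg22 library and 737 in the control library. Whether the counting used strand is not given in the sources used here, so reads from the shared bases cannot be told apart. AT3G09275, an RNA gene annotated on the opposite strand over 1389 bases of KMD4, was not analysed here.

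DRM1 (AT1G28330) belongs to the dormancy- and auxin-associated family, whose transcripts are high in dormant buds. It was at 40.1 RPKM (1371 reads) with flg22 and at 346 RPKM (10290 reads) in the control, 8.63-fold lower (8.16 to 9.14). DIN10 (AT5G20250) encodes a protein of the raffinose synthase family. It had 9093 reads and 118 RPKM in the flg22 library, against 22771 reads and 340.5 RPKM in the control library. DIN10 was 2.88-fold lower (2.81 to 2.95), the smallest reduction of the 8, and it remained the most abundant of the 10 in the flg22 library.

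DIN2 (AT3G60140) encodes the beta-glucosidase BGLU30. It had 88 reads, or 0.861 RPKM, in the flg22 library and 10 reads, or 0.112 RPKM, in the control library. DIN2 was thus 7.65-fold higher with flg22 (3.97 to 16.5), opposite to the other dark-inducible genes of the set. Its mean was under 1 RPKM, so it is in none of the counts past 2-fold, and its log2 ratio was 0.74 with 1 RPKM added and 2.18 with 0.1 RPKM added.

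In the control library both regulators with reads stood below all of the other markers but DIN2. AKINBETA1 (AT5G21170) encodes a beta subunit of SnRK1, which holds the catalytic and gamma subunits together. It was at 7.02 RPKM (507 reads) with flg22 and at 33.3 RPKM (2095 reads) in the control, 4.75-fold lower (4.31 to 5.25). bZIP63 (AT5G28770) is a group C factor that SnRK1 phosphorylates under energy shortage. It was at 8.69 RPKM (377 reads) with flg22 and at 27.6 RPKM (1042 reads) in the control, 3.18-fold lower (2.82 to 3.58). The intervals of bZIP63 and DIN10 overlapped.

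bZIP1 (AT5G49450), the group S1 partner that acts on ASN1 and other starvation genes, was listed at 0 reads in both libraries. A floor of 3 reads, set for a count of 0, is 0.122 in the flg22 library and 0.140 in the control library when scaled by library total without gene length (CPM). Scaled by gene length as well, the exact two-sided 95% Poisson interval reaches to 0.165 RPKM in the flg22 library and 0.190 RPKM in the control library. These ends are not in the unit of the floor. All 5 group S1 genes (bZIP1, bZIP2, bZIP11, bZIP44 and bZIP53) were listed at 0 in both libraries. In the table each of the 5 stands beside another entry of exactly the same listed length, which for bZIP1 is AT5G49448 at 906 bases. Of the 177 entries that share their length with the adjacent one, 86.4% were at 0 in both libraries, and of the other 27239 entries 14.1%. The 0 of bZIP1 is therefore given as listed and is not read as absence of the transcript.

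**Figure D2:**
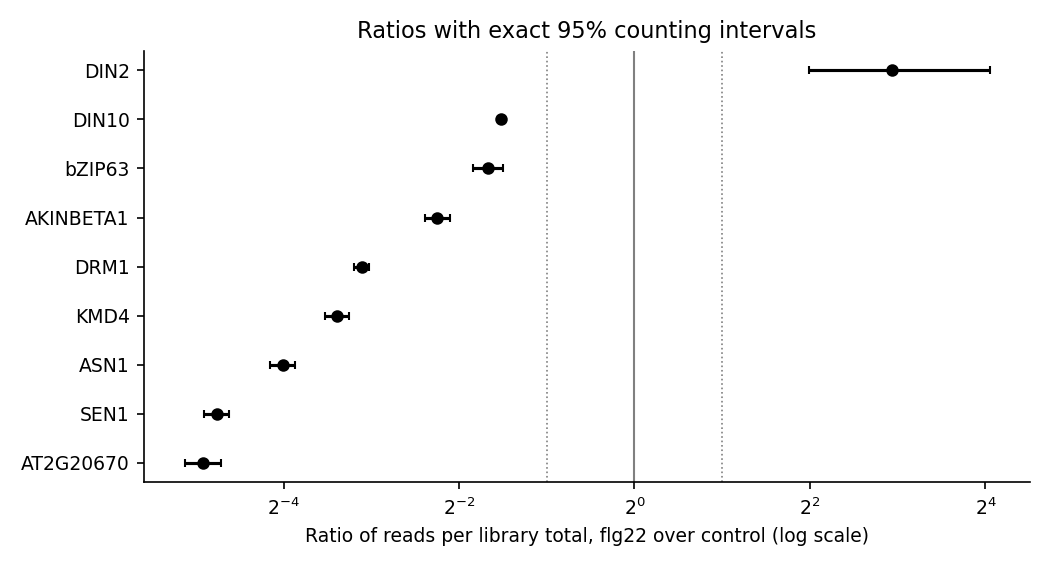
Ratio of reads per library total, flg22 over control, on a log scale, with exact 95% counting intervals; 9 genes are shown, since bZIP1 had no reads. The 8 lower genes spread from 2.88-fold lower (DIN10) to 30.2-fold lower (AT2G20670), left of the dotted 2-fold line, and DIN2 lies to the right at 7.65-fold higher.

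The order of the 10 levels differed between the libraries. In the flg22 library it ran DIN10, DRM1, SEN1, KMD4, bZIP63, AKINBETA1, ASN1, AT2G20670, DIN2 and bZIP1. SEN1 and KMD4, and ASN1 and AT2G20670, did not differ there beyond counting error. In the control library the order was SEN1, DRM1, DIN10, AT2G20670, KMD4, ASN1, AKINBETA1, bZIP63, DIN2 and bZIP1, with DRM1 and DIN10 within counting error. Over 16096 genes whose span exceeds their exons by more than 20%, the listed length had a median of 0.959 of the span and 1.42 of the exons, with single genes outside this pattern, so levels depend on the length used. Per annotated exon length AKINBETA1 was at 12.6 RPKM in the flg22 library and 59.8 RPKM in the control library, and it then stood above bZIP63 in both, with overlapping intervals in the flg22 library. Likewise DIN2 was at 1.53 RPKM with flg22 and 0.200 RPKM in the control per exon length, and DIN10 and DRM1 changed places in the control library.

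**Figure D3:**
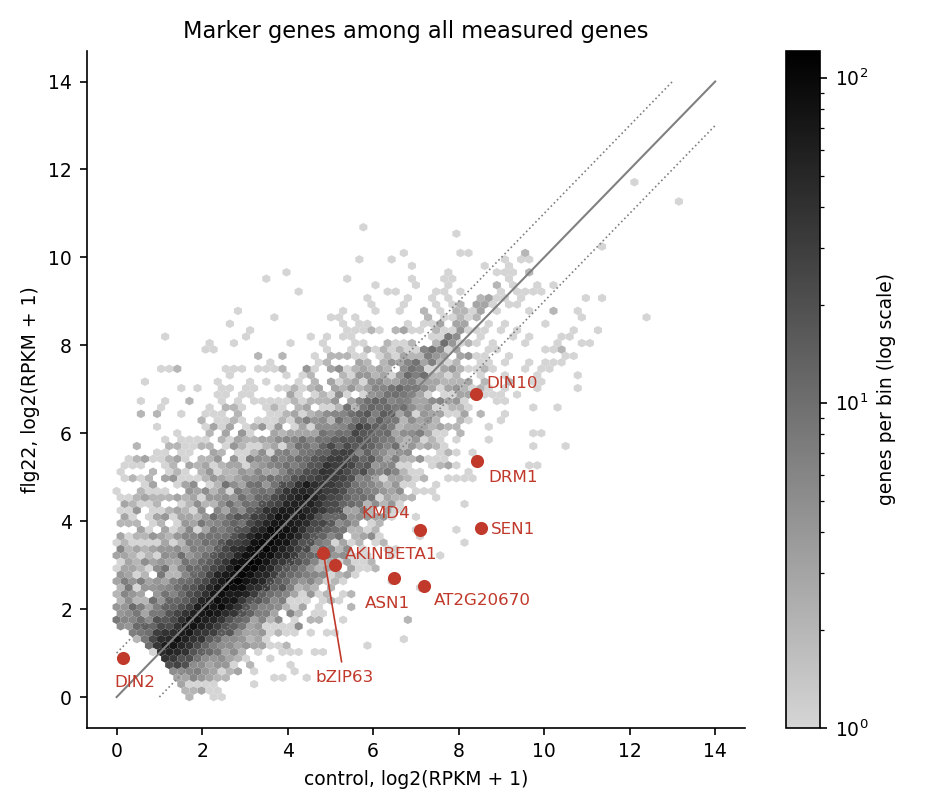
Levels of all 18724 measured genes (grey, darker where more genes fall in a bin) as log2(RPKM + 1), flg22 on the vertical and control on the horizontal axis, with equality (solid) and 2-fold limits (dotted). The 8 reduced marker genes lie below the lower limit, SEN1 and AT2G20670 farthest from it, and DIN2 sits at the lower left corner above equality.

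The authors' deposited table compares the same libraries and lists SEN1 at a log2 fold change of -4.72 (false discovery rate 0.0176). For AT2G20670 the authors' deposited table has -4.87 (false discovery rate 0.0138), and for ASN1 -3.97 (false discovery rate 0.0683). KMD4 and DRM1 stand in the authors' deposited table at -3.35 and -3.07 with false discovery rates of 0.195 and 0.298. With 1 library per group those rates cannot reflect the spread between replicates. For DIN10, bZIP63 and DIN2 the authors' deposited table gives -1.48, -1.63 and 2.98, each with a false discovery rate of 1, and for AKINBETA1 -2.21 with a rate of 0.915.

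Promoter sequences are shown for the most strongly reduced genes, for the kinase subunit gene, and for DIN2 as the gene that went the other way. Each window runs from 250 bases before to 50 bases after the annotated gene start in RefSeq's TAIR10.1 annotation, and is written 5' to 3' on the gene's strand. Capitals mark exact matches, on either strand, to any of 4 short elements: ACGT (the core bound by bZIP factors), CACGTG (the G-box, which contains that core), ACTCAT (an element of group S1 bZIP targets) and TATCCA (an element of sugar-starved cereal amylase promoters, read as TGGATA on the other strand). The windows are chr4:16944628-16944927 (plus strand) for SEN1, chr3:17441382-17441681 (minus strand) for ASN1, chr2:8913698-8913997 (minus strand) for AT2G20670, chr5:7205227-7205526 (plus strand) for AKINBETA1 and chr3:22216290-22216589 (plus strand) for DIN2.
SEN1: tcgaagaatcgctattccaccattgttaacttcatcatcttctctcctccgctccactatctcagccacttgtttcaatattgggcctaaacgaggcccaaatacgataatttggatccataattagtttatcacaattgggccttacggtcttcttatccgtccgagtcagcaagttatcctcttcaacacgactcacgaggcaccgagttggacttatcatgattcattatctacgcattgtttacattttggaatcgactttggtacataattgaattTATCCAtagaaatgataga
ASN1: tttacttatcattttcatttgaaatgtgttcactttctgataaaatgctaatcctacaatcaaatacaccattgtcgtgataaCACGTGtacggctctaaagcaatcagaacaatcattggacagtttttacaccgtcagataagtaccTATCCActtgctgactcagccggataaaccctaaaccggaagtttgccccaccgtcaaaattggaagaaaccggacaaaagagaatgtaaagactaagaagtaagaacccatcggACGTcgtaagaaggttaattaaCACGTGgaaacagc
AT2G20670: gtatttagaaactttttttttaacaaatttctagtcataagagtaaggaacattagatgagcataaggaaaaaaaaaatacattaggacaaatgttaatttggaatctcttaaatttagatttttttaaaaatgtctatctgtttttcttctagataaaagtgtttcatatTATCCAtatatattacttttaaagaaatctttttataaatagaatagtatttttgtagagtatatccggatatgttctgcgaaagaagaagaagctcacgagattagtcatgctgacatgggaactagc
AKINBETA1: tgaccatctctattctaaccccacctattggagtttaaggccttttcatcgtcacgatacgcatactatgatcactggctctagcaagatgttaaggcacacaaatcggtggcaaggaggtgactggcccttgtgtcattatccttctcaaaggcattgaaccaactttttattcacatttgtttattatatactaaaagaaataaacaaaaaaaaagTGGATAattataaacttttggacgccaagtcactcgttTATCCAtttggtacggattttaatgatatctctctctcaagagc
DIN2: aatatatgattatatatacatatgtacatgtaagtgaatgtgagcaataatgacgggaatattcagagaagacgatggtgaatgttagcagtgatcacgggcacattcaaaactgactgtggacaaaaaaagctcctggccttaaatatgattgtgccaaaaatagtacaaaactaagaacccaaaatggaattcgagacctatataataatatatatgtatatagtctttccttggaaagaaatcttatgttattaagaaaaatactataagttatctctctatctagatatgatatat

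TATCCA was found in the windows of 5 of the 10 genes (SEN1, ASN1, AT2G20670, AKINBETA1 and bZIP1), and in 16.1% of the windows of 27443 nuclear protein-coding genes. Counted from the annotated start, it begins at -79 in AT2G20670 and at -101 in ASN1. The match of SEN1 lies after the start, at base 32, and AKINBETA1 has matches at -32 (opposite strand) and 7. ASN1 was the one gene of the 10 with the G-box, which occurs there at 2 places, against 7.68% of all windows. ACGT was present in ASN1 and DIN10, 2 of the 10, while 49.9% of all windows hold it. ACTCAT was present in DRM1 alone, against 14.7% of all windows. KMD4, bZIP63 and DIN2 held none of the 4 elements in this window. The reduced genes KMD4, DRM1, DIN10 and bZIP63, whose windows are not shown, held no TATCCA. These matches describe letters and are not evidence of a bound site.

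Relatives of the reduced markers were looked at family by family. Of the asparagine synthetase genes, ASN2 (AT5G65010) was at 114 RPKM in the flg22 library and 38.2 RPKM in the control library, 2.98-fold higher (2.86 to 3.11). ASN3 (AT5G10240) was at 11.2 RPKM with flg22 and 9.69 RPKM in the control. The summed level of the 3 genes was 130.5 RPKM in the flg22 library and 136 RPKM in the control library. Within that sum ASN1 held 4.21% in the flg22 library and 64.9% in the control library. By listed length the family total was thus 1.04-fold lower with flg22 while its leading gene changed. Per exon length the sum was instead higher with flg22, at 199 RPKM against 183 RPKM in the control. The share of ASN1 was then 3.37% with flg22 and 59.0% in the control.

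The KMD genes were also divided. KMD1 (AT1G80440) was at 25.7 RPKM with flg22 and 90.5 RPKM in the control, 3.51-fold lower (3.26 to 3.79). KMD2 (AT1G15670) was at 124 RPKM with flg22 and 37.2 RPKM in the control, 3.32-fold higher (3.12 to 3.54). KMD3 (AT2G44130) was listed at 0 in both libraries. KMD4 held 7.94% of the summed level of KMD1, KMD2 and KMD4 in the flg22 library, against 51.4% in the control library. A further Kelch F-box gene, AT1G23390, was 3.44-fold lower (3.17 to 3.74).

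The relatives of SEN1 with a rhodanese fold went both ways. AT2G17850 was at 103 RPKM (2079 reads) in the flg22 library and 9.77 RPKM (171 reads) in the control library, 10.6-fold higher (9.04 to 12.4). STR16 (AT5G66040), a sulfurtransferase gene, was at 89.8 RPKM with flg22 and 236 RPKM in the control, 2.62-fold lower (2.48 to 2.77). STR18 and AT2G21045 lay within 2-fold. SEN1 held 5.11% of the summed level of the 5 genes in the flg22 library and 55.5% in the control library.

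Each DRM family gene with more than 3 reads was at least 2-fold lower with flg22, where 8.27% of all measured genes were. These genes were chosen with earlier results of these data known, so this is a description. DRM2 (AT2G33830) was at 51.8 RPKM with flg22 and 806 RPKM in the control, 15.6-fold lower (14.6 to 16.6). AT1G56220, of the same family, was at 31.6 RPKM with flg22 and 269.8 RPKM in the control, 8.53-fold lower (8.002 to 9.09). The summed level of DRM1, DRM2 and AT1G56220 was 124 RPKM in the flg22 library and 1422 RPKM in the control library, 11.5-fold lower. AT1G54070 had 3 reads with flg22 and 1 in the control, and AT5G44300 had 1 read with flg22 and 0 in the control.

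Of the DUF506 relatives of AT2G20670, 5 of 10 were measured, 3 of them at least 2-fold higher and 1 lower, where all measured genes had 11.3% higher and 8.27% lower. AT2G39650 was at 17.8 RPKM with flg22 and 3.06 RPKM in the control, 5.80-fold higher (4.72 to 7.18). AT1G62420 was at 3.83 RPKM with flg22 and 0.302 RPKM in the control, 12.7-fold higher (7.08 to 25.02). AT4G32480 was 2.42-fold higher (2.24 to 2.62). AT2G38820 was at 3.07 RPKM with flg22 and 14.1 RPKM in the control, 4.58-fold lower (3.796 to 5.56). AT3G07350, within the limit, had a log2 ratio of -0.98. Among the raffinose synthase relatives of DIN10, RS2 and RS5 lay within 2-fold, with log2 ratios of -0.74 and 0.69.

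**Figure D4:**
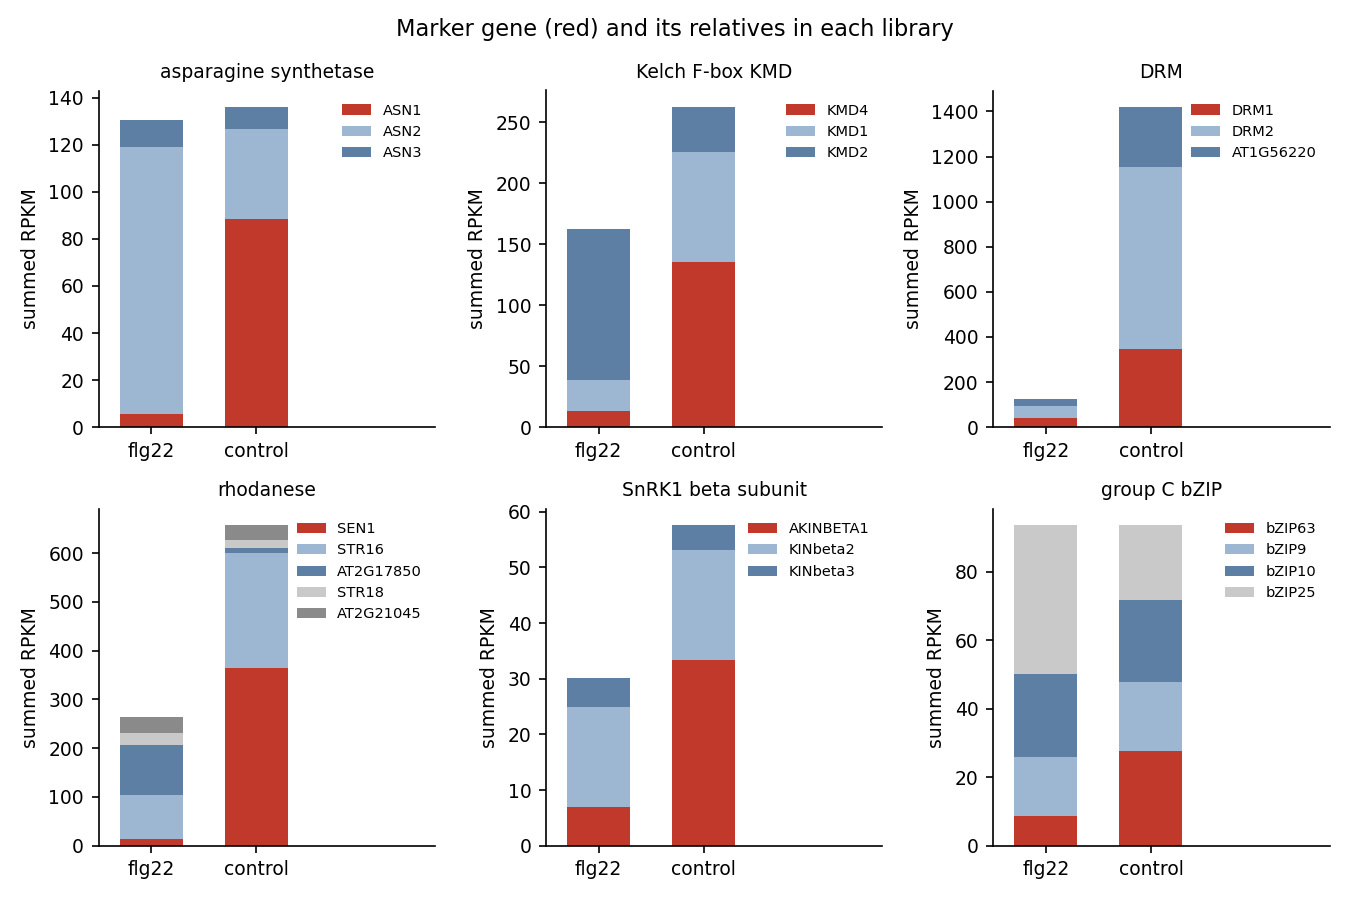
Summed RPKM of 6 gene families as stacked bars, flg22 left and control right, with the marker gene in red at the base of each bar; each library is 1 pool, so there are no error bars. The asparagine synthetase bars are nearly equal in height (130.5 and 136 RPKM) while the red ASN1 part nearly vanishes with flg22, and the DRM bars differ in height (124 and 1422 RPKM).

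The other SnRK1 subunits differed less than AKINBETA1. Of 9 genes for the complex and its activating kinases, 6 were measured, and 1 was at least 2-fold lower and none higher, where the shares over all measured genes were 8.27% and 11.3%. That gene was KINgamma (AT3G48530), at 27.996 RPKM with flg22 and 57.3 RPKM in the control, 2.04-fold lower (1.92 to 2.17). Its call was lost when ratios were scaled by the median gene or with 5 RPKM added. The catalytic subunit genes KIN10 (AT3G01090) and KIN11 (AT3G29160) were 1.58-fold (1.46 to 1.71) and 1.202-fold (1.097 to 1.32) lower. KINbeta2 was at 17.9 RPKM with flg22 and 19.9 RPKM in the control, and KINbeta3 at 5.27 RPKM with flg22 and 4.42 RPKM in the control. AKINBETA1 held 23.2% of the summed beta subunit level in the flg22 library and 57.9% in the control library.

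The group C relatives of bZIP63 lay within 2-fold. bZIP25 (AT3G54620) was at 43.5 RPKM with flg22 and 21.9 RPKM in the control, 1.98-fold higher (1.85 to 2.13). bZIP9 had a log2 ratio of -0.23 and bZIP10 of 0.03. The summed level of the 4 group C genes was 93.7 RPKM with flg22 and 93.6 RPKM in the control, and bZIP63 held 9.27% of it in the flg22 library and 29.5% in the control library. Per exon length the sum was 134 RPKM with flg22 and 128 RPKM in the control.

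Further DIN genes showed no common direction. DIN11 (AT3G49620), a 2-oxoglutarate-dependent oxygenase gene, was at 41.3 RPKM (3124 reads) in the flg22 library and 0.669 RPKM (44 reads) in the control library, 61.8-fold higher (45.9 to 85.2). DIN4 (AT3G13450), for a subunit of branched-chain keto acid dehydrogenase, was at 6.84 RPKM with flg22 and 29.6 RPKM in the control, 4.33-fold lower (3.86 to 4.86). DIN3 (AT3G06850), another subunit of that enzyme, and DIN9 (AT1G67070), a phosphomannose isomerase gene, lay within 2-fold at log2 ratios of -0.52 and 0.28.

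A wider list of 27 genes known to rise in sugar starvation or under SnRK1 was mostly lower. Of its 26 measured genes, 15 were at least 2-fold lower, 3 were higher and 8 lay within 2-fold, against 8.27% lower and 11.3% higher over all measured genes. The median log2 ratio of the 26 was -1.35. This list was also chosen with earlier results of these data known, so its counts are a description. DRM2 is on it and is also given above as a relative of DRM1. BXL1 (AT5G49360), which codes for a beta-xylosidase of the cell wall, had the lowest ratio, at 1.45 RPKM with flg22 and 106 RPKM in the control. AT3G15450, annotated as an aluminum-induced protein, was at 64.5 RPKM with flg22 and 881 RPKM in the control, 13.7-fold lower (13.01 to 14.3). The reduced genes also held BGAL4, a beta-galactosidase gene, at 10.5-fold lower (9.47 to 11.6), and STP1, a hexose transporter gene, at 4.89-fold lower (4.71 to 5.09). Genes for leucine breakdown were among them, with MCCA 5.76-fold lower (5.26 to 6.31) and MCCB 3.04-fold lower (2.81 to 3.29), while IVD did not pass the limit (log2 ratio -0.82). The genes at least 2-fold higher were the trehalase gene TRE1, the chloroplast beta-amylase gene BAM3 and the EXORDIUM-like gene EXL4, with log2 ratios of 1.23, 1.21 and 1.26. GDH2 (AT5G07440), a glutamate dehydrogenase gene, was at 353 RPKM with flg22 and 179 RPKM in the control, 1.97-fold higher (1.92 to 2.02). BGAL4, STP1, MCCA, MCCB, IVD and GDH2 were picked out after their values were seen.

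Autophagy genes, which starvation also calls on, stayed near their control level. All 26 were measured, 24 lay within 2-fold, 2 were lower and none was higher, and their median log2 ratio was -0.14. The share lower was near the 8.27% over all measured genes, where 11.3% were higher. The lower genes were ATG8f (AT4G16520), at 22.9 RPKM with flg22 and 62.6 RPKM in the control, and ATG8e (AT2G45170), at 15.5 RPKM with flg22 and 36.1 RPKM in the control. ATG8 proteins coat the growing autophagosome. ATG13a, for a subunit of the initiating kinase complex, had a log2 ratio of -0.78.

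Of 12 genes of senescence and chlorophyll breakdown, 9 were measured, 3 of them at least 2-fold lower and 1 higher, with a median log2 ratio of -0.80. Over all measured genes 8.27% were lower and 11.3% higher. NAP (AT1G69490), a NAC factor of leaf senescence, was at 2.41 RPKM with flg22 and 12.1 RPKM in the control, 5.01-fold lower (3.89 to 6.51). PAO and RCCR, enzymes that open and reduce the chlorophyll ring, were 2.28-fold (2.05 to 2.55) and 2.39-fold (2.11 to 2.71) lower. SAG13 (AT2G29350) was higher, at 3.07 RPKM with flg22 and 0.370 RPKM in the control. With 5 RPKM added the counts were 1 lower and 0 higher. SAG12, a late marker of senescence, was listed at 0 in both libraries.

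Genes that sugar raises were looked at as the opposite group. Of 10, 6 were measured, and their median log2 ratio was 0.22. None of the 6 was lower past the limit, and GPT2 and CHS were higher, against 8.27% lower and 11.3% higher over all measured genes. GPT2 (AT1G61800), a glucose-6-phosphate translocator gene, was at 58.7 RPKM (3375 reads) with flg22 and 1.28 RPKM (64 reads) in the control, 45.9-fold higher (35.8 to 59.7). CHS (AT5G13930), the chalcone synthase gene, was 2.33-fold higher (2.16 to 2.51). BAM5, a beta-amylase gene, had a log2 ratio of 0.73. The other measured genes, named to complete the 6, were lower within the limit. These were APL3, APL4 and TPS5, with log2 ratios of -0.29, -0.38 and -0.30.

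**Figure D5:**
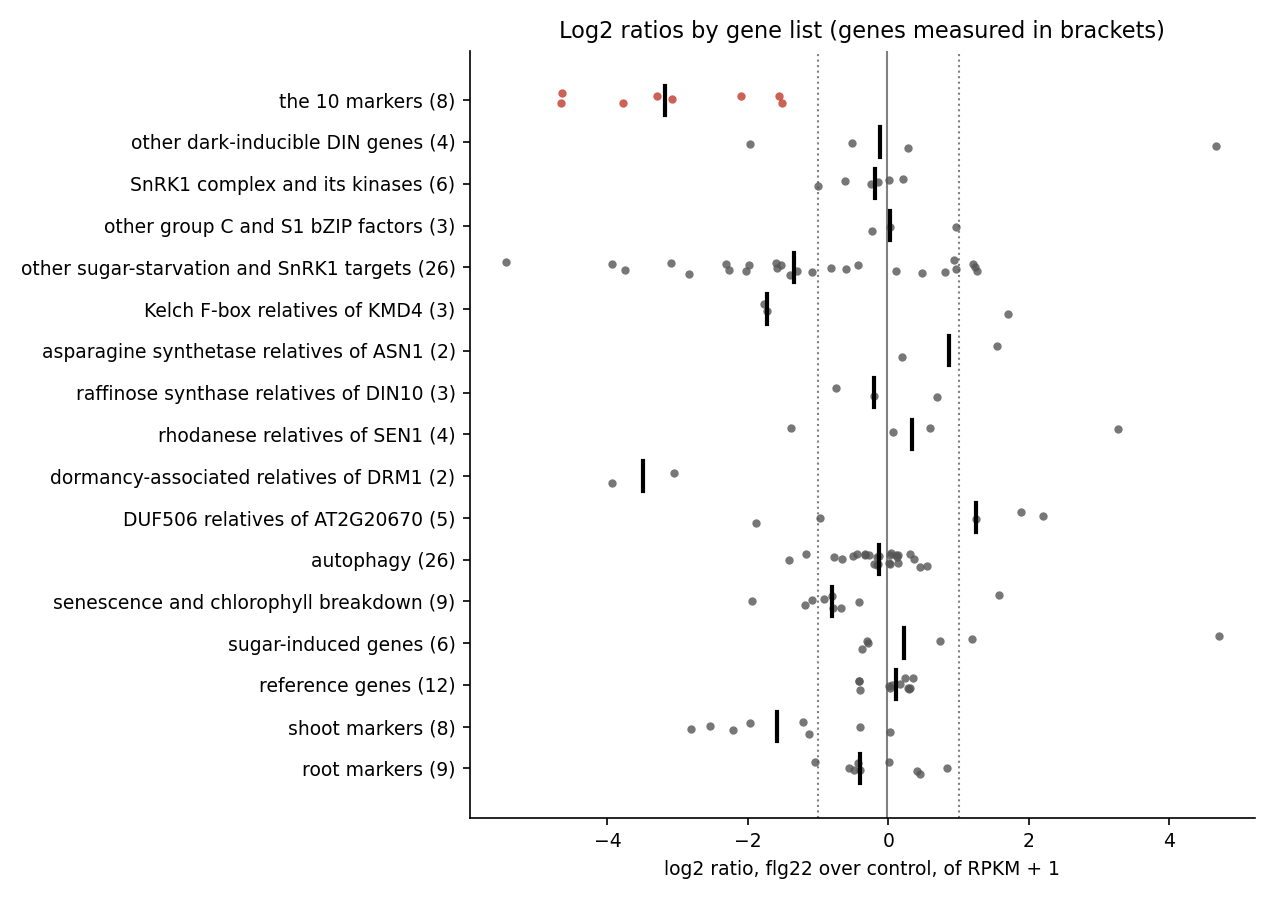
Log2 ratio of RPKM + 1, flg22 over control, of each measured gene by list (points), with the list median (black bar), the median of all measured genes (solid line) and the 2-fold limits (dotted). The 8 measured markers (red) lie left of the lower limit and were picked with these ratios known. The wider starvation list is centred at -1.35 with genes on both sides, and autophagy genes are gathered around -0.14. The other lists were also chosen with earlier results of these data known.

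By distance on the plane of both log2 levels, the genes closest to the median point of the 10 markers were AT4G29905, AT5G16030, GSTF14 (AT1G49860), RZPF34 (AT5G22920) and BBD1 (AT1G75380), at distances of 0.35 to 0.64 log2 units among 27196 nuclear genes over 2 libraries. Of these, RZPF34, a RING finger gene, is on the starvation list and was at 9.84 RPKM with flg22 and 76.8 RPKM in the control. BBD1, a nuclease gene of basal defence, was at 12.2 RPKM with flg22 and 132 RPKM in the control. The median point takes in DIN2 and the listed 0 of bZIP1, and it was not computed without them.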

How the data were processed

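Total RNA of frozen whole seedlings was extracted with a plant kit and sequenced on an Illumina HiSeq, 3 biological replicates pooled in each of 2 libraries, per the labels. Per the file headers, the authors deposited a read count and an RPKM value of every gene in each library. Bowtie, TopHat, DESeq and the build TAIR10 are listed by the submitters' processing notes. How reads were counted, and whether strand was used, is not given in these sources. RPKM as deposited equal counts over listed length and column total. Fold changes on a log2 scale, p-values and false discovery rates also stand in the authors' deposited table. A further 2 columns of scaled values were not used.

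Ratios, exact conditional binomial intervals (Clopper-Pearson, 95%) and exact Poisson intervals were computed with Python 3.11.15, numpy 2.4.6, pandas 2.3.3 and scipy 1.17.1. The floor of 3 reads per library is stated for the 0 of bZIP1 only and entered no level, ratio or interval. It is below the upper end of the two-sided Poisson interval. With 1 pooled library per group, intervals cover counting error only. Reads carry no molecular identifiers, so copies of the same molecule could not be told apart. The intervals treat each read as independent and may be too narrow. Precision is set by 24621440 flg22 and 21414567 control reads. The steps were tested on simulated data. No test between groups was possible with 1 library each. The marker genes, lists and rules were chosen with earlier results of these data known. Named are the 10 markers, the 3 largest log2 ratios of each list, and others said to be picked later or needed to account for a small count or family. A further gene under this rule is not reported here. Alternatives were other constants, filters, scalings, lengths and fold limits. Of the 27416 identifiers, 26719 were found in RefSeq's TAIR10.1.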

Additional observations from a re-analysis of the deposited data

How the results depend on the processing

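With 1 library per group, leaving out a replicate was not possible, and no paired analysis was possible because each group has 1 library. The 9 marker genes with reads kept the direction of their log2 ratio with 0.1 or 5 RPKM added, per annotated exon length, and under both other scalings. Their size depended on the constant. With 5 RPKM added KMD4 and DRM1, at log2 ratios of -2.97 and -2.96, no longer reached the 8-fold limit. AKINBETA1, at -1.67, then no longer reached the 4-fold limit. The 12 reference genes lay within 2-fold, with a median log2 ratio of 0.11 and the largest in size at -0.42 (ACT2 and AT5G15710) and -0.41 (TUB2). Centring on them moved log2 ratios without an added constant by -0.11, and scaling by the median gene by 0.03. With 1 RPKM added the shift was smaller for weakly expressed genes, and the median of all measured genes was -0.12 under that centring, against -0.03. The share of reads taken by the markers was 0.0544% in the flg22 library and 0.307% in the control library without the 10 most abundant genes of either library. Of all measured genes, 1392 were higher and 830 lower past 2-fold with 5 RPKM added, against 2111 and 1548 with 1 RPKM. At a 4-fold limit, 781 were higher and 279 lower, and of the wider starvation list 0 were higher and 8 lower. Depth limits DIN2, with 10 reads in the control library. The 0 reads of bZIP1 in both libraries are given as listed, and whether depth or the counting set them was not tested.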

Other observations

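The table held 106 pairs of adjacent entries with equal listed length, and in 92 of them both entries were at 0 reads in both libraries. Besides the group S1 bZIP genes, the starvation lists held further genes at 0 in both libraries. These were KMD3, GRIK2, SnRK1.3, SAG12 and, of the DUF506 family, AT3G22970, AT4G14620 and AT3G54550. They were picked out after their values were seen. Of 3 seed storage genes, CRU1 had 7 reads in the flg22 library and 69 in the control library, CRU3 had 0 reads with flg22 and 35 in the control, and At2S3 was listed at 0 in both.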
